A study of Mus musculus with 8 samples.

Results

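Guanylate binding proteins and immunity-related GTPases are enzymes that interferon gamma switches on in most nucleated cells. The genes described here were chosen by name, as listed interferon gamma induced GTPases, without a threshold on their values: Gbp2, Gbp3, Gbp4, Gbp7, Gbp8, Gbp9, Igtp, Irgm1, Irgm2 and Iigp1. They are 10 of 35944 genes counted, and all 10 were among the 10361 genes with enough counts to test. RNA came from mouse buffy coat, the layer of white cells and platelets in centrifuged blood, of animals that had received PM2.5 (fine airborne particulate matter) or phosphate-buffered saline (PBS) for 24 weeks. There were 4 libraries of PM2.5-exposed mice, labelled 9, 17, 18 and 21, and 4 of PBS mice, labelled 4, 10, 12 and 16, and these label numbers serve as replicate numbers. Strain, age, sex, dose and route are not stated in the labels. Nor do the labels say that libraries stem from different mice, so a p-value here reflects only how these 8 libraries vary, which may be technical.

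Both families defend cells against microbes that live inside them. Guanylate binding proteins (GBPs) are large GTPases related to dynamin that assemble on the membranes of bacteria and of vacuoles holding parasites, help to break them open and let inflammasomes sense what is released. In the mouse their genes lie in a cluster on chromosome 3 and another on chromosome 5. Immunity-related GTPases (IRGs) divide into regulators, Irgm1, Irgm2 and Igtp, which sit on the cell's own membranes and keep the effectors there inactive, and effectors such as Iigp1, which load onto the vacuole of Toxoplasma. Interferon gamma binds the receptor chains Ifngr1 and Ifngr2, the kinases Jak1 and Jak2 pass the signal on, and it reaches gamma-activated sites (GAS) in promoters. Irf1, and a complex that holds Irf9 and forms after type I interferon, bind interferon-stimulated response elements (ISRE).

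RefSeq promoters (GRCm38.p6, 250 bases before to 50 after the start) were at hand for 6 of the 10 genes. They are shown for the GAS and ISRE named above, and the promoters of Gbp4, Gbp8, Gbp9 and Iigp1 were not examined. The ISRE core was searched as GAAANNGAAA and the GAS as TTCNNNGAA, on both strands. All 6 genes held an ISRE core, against 3.44% of 32851 promoters of the same length, and 3 of them (Gbp7, Igtp and Irgm2) held a GAS, against 8.3%. Each stretch below is printed 5′ to 3′ along the gene's own strand, with GAS and ISRE matches in capitals, and positions count back from -1, the base before the start.
Igtp (chr11:58199446-58199555, + strand): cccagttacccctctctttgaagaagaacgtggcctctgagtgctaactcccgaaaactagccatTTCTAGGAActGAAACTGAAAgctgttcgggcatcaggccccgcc
Irgm2 (chr11:58214867-58214976, + strand): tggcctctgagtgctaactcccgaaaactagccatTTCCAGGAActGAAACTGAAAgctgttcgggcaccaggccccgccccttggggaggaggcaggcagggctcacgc
Tgtp2 (chr11:49064213-49064322, - strand): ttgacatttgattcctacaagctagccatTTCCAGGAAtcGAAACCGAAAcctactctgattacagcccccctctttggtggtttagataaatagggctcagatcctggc
Gbp7 (chr3:142530226-142530335, + strand): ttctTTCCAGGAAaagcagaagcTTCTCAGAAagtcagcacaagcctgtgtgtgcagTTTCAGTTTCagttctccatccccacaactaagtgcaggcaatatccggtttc
Gbp3 (chr3:142559989-142560018, + strand): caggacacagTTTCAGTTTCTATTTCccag
Gbp2 (chr3:142620594-142620623, + strand): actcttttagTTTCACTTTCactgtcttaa
Irgm1 (chr11:48871431-48871460, - strand): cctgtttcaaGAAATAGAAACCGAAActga

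Igtp and Irgm2 carried the same unit, a GAS, 2 bases and then an ISRE core, beginning at -45 in Igtp and at -75 in Irgm2. Only 5 of the 32851 promoters held this unit (0.0152%): those of Igtp, Irgm2, Tgtp1, Tgtp2 and Gm12185. The T cell-specific GTPases Tgtp1 and Tgtp2 are IRG effectors outside the list of members, and Tgtp2 is shown for comparison. Aligned at the GAS, 78 of 80 bases were identical between the Igtp and Irgm2 stretches (97.5%), and 48 of 74 between Igtp and Tgtp2 (64.9%). Gbp7 held GAS matches at -106 and -87 and an ISRE core on the other strand at -53, Gbp2 an ISRE core at -59, and Gbp3 and Irgm1 overlapping cores at -45 and -39 and at -30 and -24. All 30 printed bases of Irgm1, and 22 of the 30 of Gbp2, lie in annotated exons. A match of these letters is a description of the sequence and not a binding site, and matches do not record whether a factor was bound in these cells.

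Libraries held 72042685 to 89003605 expected counts, of which 4 haemoglobin genes took 82.4% to 88.7%, leaving 9615115 to 12714432 counts for all other genes. Levels are given as CPM, counts scaled to a common library size, after TMM scaling, which sets each library's size so that most genes match, and the factors ran from 0.638 in PM2.5 replicate 18 and 0.644 in replicate 17 to 1.52 in PBS replicate 4. PM2.5 replicates 17 and 18 also stood apart in the neuronal transcript Camk2a, at 1.43 and 1.79 CPM against at most 0.0373 in the other 6 libraries. Camk2a belongs to a list of 12 brain markers, whose summed CPM did not set these replicates apart. That sum was 50.3 in replicate 17 and 77.2 in replicate 18, against 37.1 to 85.3 in the other 6 libraries. In the edgeR quasi-likelihood test with Benjamini-Hochberg adjustment over all genes, 48 genes (0.463% of those tested) were higher and 118 (1.14%) lower with PM2.5. Among markers of the white cell layer, 4 of 7 tested neutrophil markers rose, 3 of 10 B cell markers fell, and all 14 tested erythroid markers had positive fold changes without a call.

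None of the 10 GTPase genes passed an adjusted p of 0.05, against 1.6% of all genes tested. Their adjusted p-values ran from 0.0605 (Igtp) to 0.812 (Gbp3), and their log2 fold changes (PM2.5 against PBS) from -0.50 to 0.65 with a median of 0.19, beside a median of 0.04 over all genes. Fold changes were positive in 6 of the 10, against 54.3% of all genes, but this count was 2 when libraries were scaled to their totals, where 6.89% of all genes were positive, and 3 when haemoglobin was removed first, where 21.1% were. An unadjusted p under 0.05 was reached by 3 members (Gbp2, Gbp7 and Igtp), all positive, against 8.79% of all genes for positive changes. The CPM of the groups did not overlap for 2 members, against 9.65% of all genes: 1 member in the higher direction, Igtp (3.01% of all genes), and 1 in the lower direction, Gbp8 (6.64% of all genes). Without PM2.5 replicates 17 and 18, none of the 10 passed, 6 were positive and the median was 0.10. In whole blood cell layers, fewer cells of a type and less RNA per cell cannot be told apart.

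**Figure D1:**
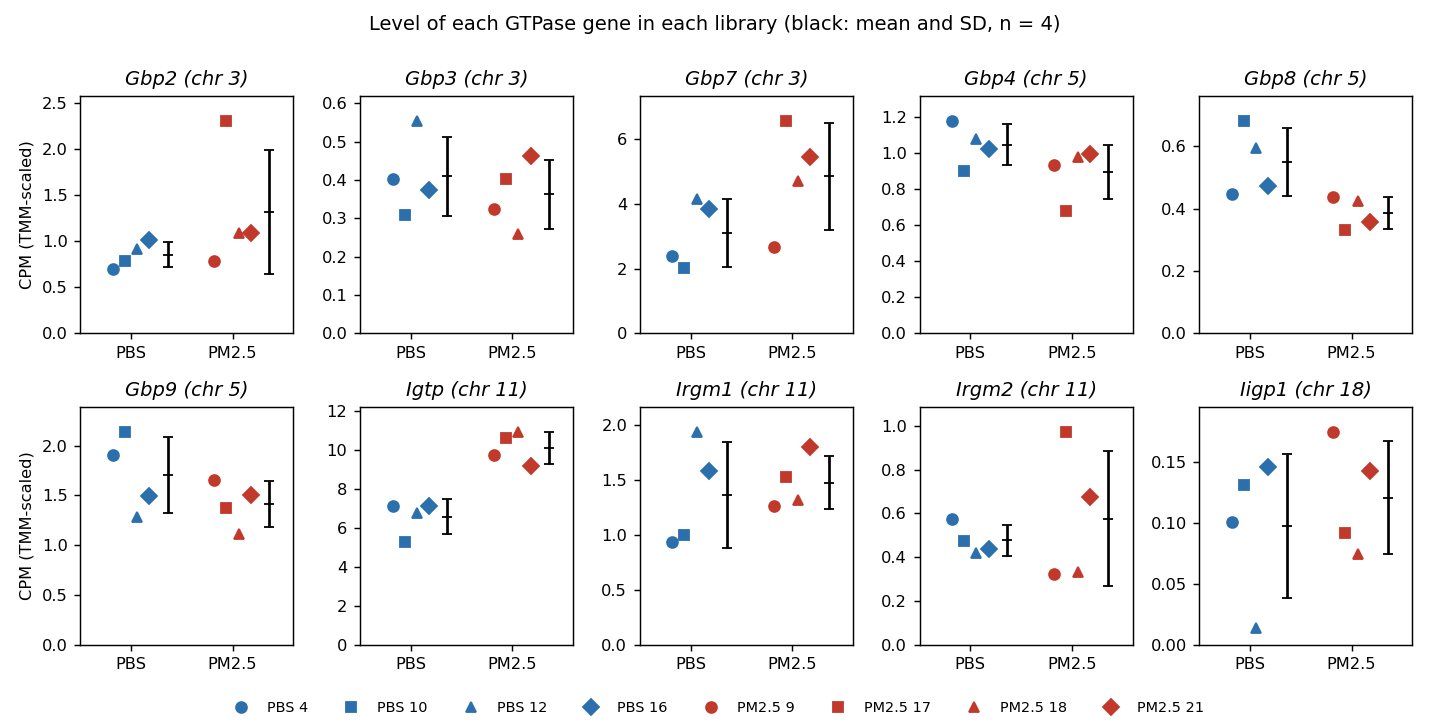
Level of each of the 10 GTPase genes in every library, in CPM after TMM scaling, with PBS in blue and PM2.5 in red, a symbol for each replicate, and the mean and SD (n = 4) beside each group. The PM2.5 libraries lie above all PBS libraries for Igtp, below them by a small margin for Gbp8, and overlap them for the other 8 genes; under scaling to library totals the mean difference of Igtp nearly vanished.

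Igtp (also called Irgm3), a regulator that holds IRG effectors off lipid droplets and the endoplasmic reticulum, was the most abundant of the 10 and the one with the smallest p. It lies on chromosome 11 from 58199556 to 58207591 (GRCm38, + strand). Its level was 9.71, 10.6, 10.9 and 9.16 CPM in PM2.5 replicates 9, 17, 18 and 21, and 7.12, 5.24, 6.76 and 7.13 CPM in PBS replicates 4, 10, 12 and 16. Every PM2.5 library was above every PBS library, and the PBS group was lowest in replicate 10. The means were 10.1 ± 0.803 CPM against 6.56 ± 0.897 (SD, n = 4 each), a 1.54-fold ratio or 0.62 on the log2 scale (SE 0.16, adjusted p = 0.0605), from 501 to 785 counts per library. DESeq2 called Igtp (log2 fold change 0.62, adjusted p = 0.00561), as did edgeR without a filter on low counts (0.60, adjusted p = 0.0335). Leaving out each library in turn gave 0.49 to 0.67, with adjusted p of 0.0762 to 0.271, and leaving out PM2.5 replicates 17 and 18 gave 0.53 (adjusted p = 0.363).

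The raw counts of Igtp did not separate the groups as its CPM did: they were 780, 579, 589 and 771 with PM2.5 and 778, 562, 501 and 785 with PBS. On the authors' deposited scale of FPKM (fragments scaled by transcript length and library size), Igtp stood at 6.48, 4.12, 4.27 and 5.51 with PM2.5 and at 6.43, 4.31, 3.41 and 5.48 with PBS, values that overlap throughout. Scaled to library totals, which include haemoglobin, its log2 fold change was 0.04, while the median of all genes moved to -0.52, so that Igtp stood 0.56 above the median gene. With haemoglobin removed before scaling it was 0.27, with a median of all genes of -0.30, and stood 0.57 above it. Under TMM it stood 0.58 above the median gene. A change of library size moves every gene by about the same amount, so the distances from the median gene are alike by construction, and only the distance from 0 depends on the scale.

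Irgm1 (chromosome 11, 48861968 to 48871683, - strand) is the regulator without which mice lose control of several bacteria and whose deletion reduces blood stem cell fitness. It was 1.26, 1.52, 1.31 and 1.79 CPM in PM2.5 replicates 9, 17, 18 and 21, and 0.933, 0.998, 1.93 and 1.58 CPM in PBS replicates 4, 10, 12 and 16. PBS libraries were both the lowest and the highest, so the PM2.5 libraries fell inside their range. The log2 fold change was 0.13 (SE 0.229, adjusted p = 0.80), less than the spread between replicates, and it turned to -0.37 with library totals and -0.18 with haemoglobin removed.

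Irgm2 (chromosome 11, 58199618 to 58222782, + strand), a regulator found at the Golgi, was 0.324, 0.971, 0.333 and 0.677 CPM with PM2.5 and 0.576, 0.476, 0.419 and 0.436 CPM with PBS, in the same order of replicates. PM2.5 libraries were at both ends, with replicates 17 and 21 above all PBS libraries and replicates 9 and 18 below all of them. The log2 fold change was 0.26 (SE 0.32, adjusted p = 0.691) from 18 to 63 counts per library, and it turned to -0.38 with library totals and -0.12 with haemoglobin removed. The annotated exons of Igtp and Irgm2 share 162 bases on the same strand, and 11.8% of the 50-base words of Igtp transcripts also occur in Irgm2, so some reads could have been assigned to either.

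Iigp1 (Irga6, chromosome 18, 60376027 to 60392634, + strand), the effector best studied on Toxoplasma vacuoles, was the lowest of the 10. It had 1 to 16 counts per library. The level was 0.174, 0.0916, 0.074 and 0.143 CPM with PM2.5 and 0.101, 0.131, 0.0135 and 0.145 CPM with PBS. The groups overlapped, PBS replicate 12 was lowest with 1 count, and the log2 fold change was 0.29 (SE 0.55, adjusted p = 0.804). This value was smaller than its SE, and at this depth differences larger than that SE could also go undetected. Its sign turned with library totals (-0.27) and with haemoglobin removed (-0.04).

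On chromosome 3, Gbp7 (142530342 to 142550149, + strand), a GBP that helps the NADPH oxidase assemble on vacuoles holding bacteria, was 2.66, 6.56, 4.72 and 5.45 CPM in PM2.5 replicates 9, 17, 18 and 21 and 2.38, 2.02, 4.14 and 3.85 CPM in PBS replicates 4, 10, 12 and 16. PM2.5 replicates 17, 18 and 21 were above all PBS libraries, and replicate 9 lay among them. The means were 4.85 ± 1.64 CPM against 3.10 ± 1.05 (SD, n = 4 each), or 0.65 (SE 0.255, adjusted p = 0.205) as a log2 fold change, from 214 to 459 counts per library. Gbp7 passed without a filter on low counts (0.63, adjusted p = 0.0184). Its fold change was 0.08 with library totals (0.60 above the median gene) and 0.39 without PM2.5 replicates 17 and 18 (adjusted p = 0.679). The exons of Gbp7 share 637 bases with the predicted gene Gm43802 on the same strand.

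Gbp2 (chromosome 3, 142620602 to 142638008, + strand), a GBP that limits Toxoplasma growth, was 0.784, 2.31, 1.09 and 1.09 CPM with PM2.5 and 0.704, 0.783, 0.918 and 1.02 CPM with PBS. PM2.5 replicate 17 was far above every other library, and the remaining PM2.5 libraries were close to the PBS ones. The means were 1.32 ± 0.675 CPM and 0.856 ± 0.139 (SD, n = 4 each), a difference of 0.61 on the log2 scale (SE 0.276, adjusted p = 0.255). Without PM2.5 replicate 17 it was 0.21 (adjusted p = 0.681), and without replicates 17 and 18 it was 0.14. The summed counts were 340 in the PM2.5 libraries and 341 in the PBS libraries, and the fold change with library totals was -0.03.

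Gbp3 (chromosome 3, 142560026 to 142573209, + strand), the third member of that cluster, showed no such difference. It was 0.324, 0.403, 0.259 and 0.463 CPM with PM2.5 and 0.402, 0.308, 0.554 and 0.373 CPM with PBS. The groups overlapped, and the log2 fold change was -0.15 (SE 0.295, adjusted p = 0.812) from 14 to 44 counts per library. In the deposited FPKM, Gbp3 was 0.12 to 0.21 with PM2.5 and 0.25 to 0.35 with PBS, the only member whose FPKM groups did not overlap, against 7.09% of all genes tested.

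The 3 members on chromosome 5 (Gbp4, Gbp8 and Gbp9, all on the - strand) had negative log2 fold changes under each scaling tried, though none passed the test, and that of Gbp9 was 0.04 when the erythroid marker mean was a covariate. Their annotated first exons overlap by 60 to 61 bases. Gbp4 (105115767 to 105139586) was 0.934, 0.678, 0.981 and 0.998 CPM with PM2.5 and 1.18, 0.905, 1.08 and 1.03 CPM with PBS. PBS libraries 4, 12 and 16 were above every PM2.5 library and PBS library 10 was not. The log2 fold change was -0.22 (SE 0.20, adjusted p = 0.58).

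Gbp8 (105014150 to 105139540) was 0.436, 0.33, 0.426 and 0.356 CPM with PM2.5 and 0.448, 0.681, 0.594 and 0.472 CPM with PBS. All PBS libraries were above all PM2.5 libraries, with PBS replicate 4 and PM2.5 replicate 9 close together at the boundary. The means were 0.387 ± 0.0519 CPM and 0.549 ± 0.109 (SD, n = 4 each), or -0.50 on the log2 scale (SE 0.256, adjusted p = 0.309) from 18 to 73 counts per library. In Gbp8, 18.1% of 50-base words also occur in other genes, the largest share among the members.

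Gbp9 (105077630 to 105139539) was 1.66, 1.37, 1.11 and 1.51 CPM with PM2.5 and 1.9, 2.14, 1.28 and 1.5 CPM with PBS. PBS replicates 4 and 10 were above every PM2.5 library and PBS replicate 12 was below 3 of them. The log2 fold change was -0.27 (SE 0.195, adjusted p = 0.469). The chromosome 5 cluster was not uniform, since Gbp6, a further gene of it named here after its values were seen, stood at 0.32 (log2 fold change, SE 0.326, adjusted p = 0.617).

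**Figure D2:**
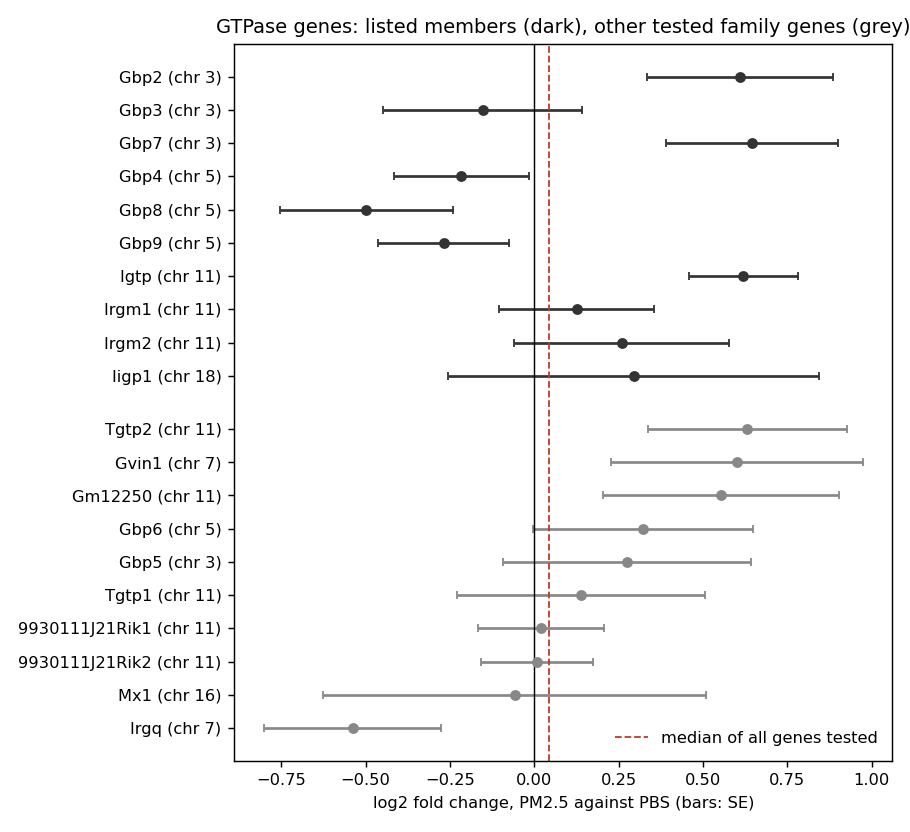
Log2 fold change (PM2.5 against PBS, TMM scaling) of the 10 members (dark) and the 10 other tested genes of the GTPase families (grey), with bars for the SE and a dashed line at the median of all genes (0.04). Members on chromosome 11 and 2 of 3 on chromosome 3 lie above 0, the 3 on chromosome 5 lie below it, and none passed the test. With library totals, Igtp and Gbp7 are the only members that stay above 0.

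Ratios of counts within a library do not depend on how libraries are scaled. The summed counts of the chromosome 11 members divided by those of the chromosome 5 members were 3.73, 5.50, 4.99 and 4.06 in PM2.5 replicates 9, 17, 18 and 21, and 2.44, 1.80, 3.08 and 3.05 in PBS replicates 4, 10, 12 and 16. Every PM2.5 library was above every PBS library, on the log2 scale 2.17 ± 0.258 against 1.34 ± 0.363 (SD, n = 4 each). Because the genes were known to differ in direction when the ratio was formed, it is a description with no test. Taken separately, both sums of unscaled counts overlapped between the groups: the chromosome 11 members summed to 820 ± 146 counts with PM2.5 and 836 ± 163 with PBS, and the chromosome 5 members to 188 ± 63.0 and 333 ± 82.0. In TMM-scaled CPM the chromosome 11 sum did separate the groups, at 12.1 ± 0.831 against 8.40 ± 1.15, and the chromosome 5 sum overlapped, at 2.70 ± 0.298 against 3.30 ± 0.383 (SD, n = 4 each).

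The chromosome 3 to chromosome 5 ratio was 1.25, 3.89, 2.41 and 2.45 with PM2.5 and 0.987, 0.836, 1.9 and 1.75 with PBS. PM2.5 replicates 17, 18 and 21 were above all PBS libraries, and replicate 9 lay among them. The chromosome 11 to chromosome 3 ratio overlapped, at 0.96 ± 0.469 and 0.98 ± 0.28 on the log2 scale. Within chromosome 11, the ratio of Igtp to Irgm1 was 7.72, 6.98, 8.30 and 5.11 with PM2.5 and 7.63, 5.25, 3.50 and 4.51 with PBS, and the groups overlapped.

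**Figure D3:**
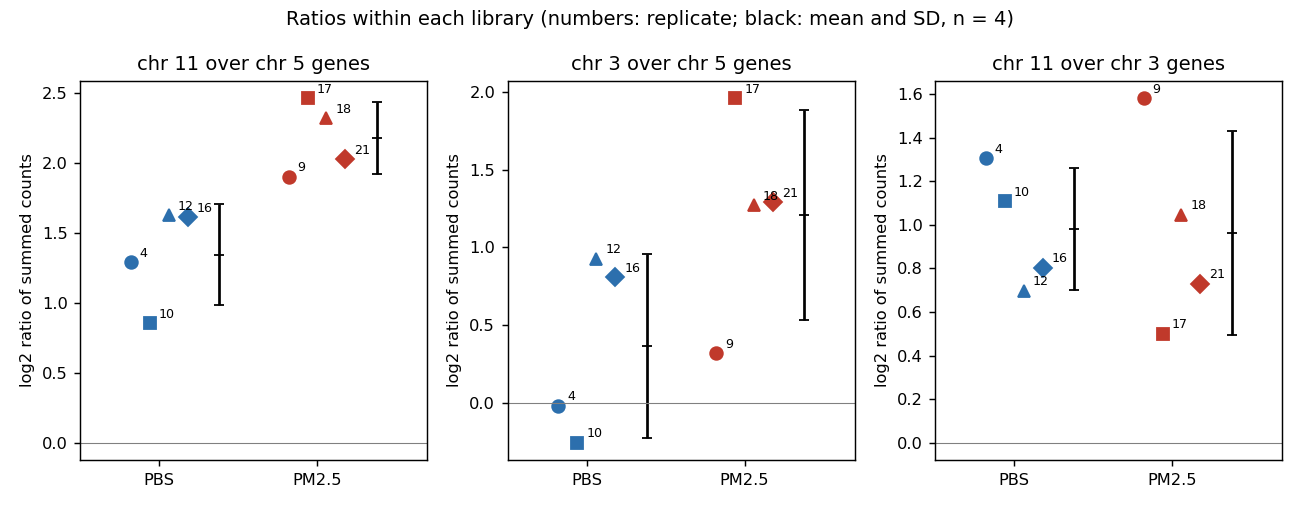
Log2 ratio of summed expected counts between member genes of different chromosomes in each library (numbers are replicates), with the mean and SD (n = 4) of each group. The chromosome 11 to chromosome 5 ratio separates the groups, with the 4 PM2.5 libraries on top, whereas the chromosome 11 to chromosome 3 ratio overlaps. Igtp holds most of the chromosome 11 counts.

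Much of what was counted for the chromosome 5 genes was assigned to transcripts that are not annotated as protein coding. In all libraries together this share was 84.2% for Gbp4, 82.0% for Gbp9 and 60.3% for Gbp8, beside 8.17% for Gbp3, 7.79% for Iigp1, 3.97% for Irgm1 and none for Gbp2, Gbp7, Igtp and Irgm2. A single transcript of Gbp4 annotated for nonsense-mediated decay (4509 bases) took 80.2% of its counts. In Gbp9 a retained-intron transcript of 5043 bases held the whole non-coding share, and in Gbp8 one of 3382 bases held 55.1%. The assignment of reads among overlapping transcripts is an estimate, and how it was made is not given in the sources used here.

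The non-coding share of Gbp8 was 46.9, 51.4, 58.3 and 27.1% in PM2.5 replicates 9, 17, 18 and 21 and 47.2, 63.6, 80.2 and 83.1% in PBS replicates 4, 10, 12 and 16. The PBS libraries were mostly higher, but replicate 4 lay among the PM2.5 ones. The means were 45.9% ± 13.4 and 68.5% ± 16.6 (SD, n = 4 each; two-sided exact permutation p = 0.0857, 0.429 adjusted over 5 genes, where the smallest possible p is 0.0286). For Gbp4 the means were 90.8% ± 2.34 and 82.0% ± 14.1 (exact permutation p = 0.314), and for Gbp9 74.7% ± 14.96 and 85.2% ± 5.69 (exact permutation p = 0.257). Each difference was below the larger of its group SDs, though above the smaller one. Igtp was counted in 3 coding transcripts, the longest of which (2022 bases) took 71.7%.

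**Figure D4:**
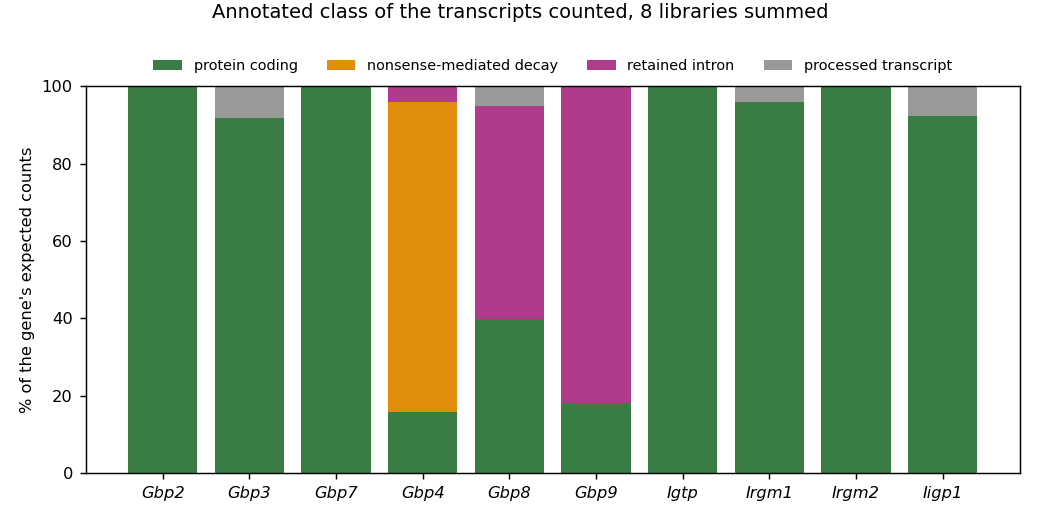
Share of each gene's expected counts, summed over 8 libraries, by the GENCODE class of the transcript they were assigned to. Protein-coding transcripts hold the smaller share in Gbp4, Gbp8 and Gbp9 and nearly all counts in the other 7 genes.

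Compared per length on the deposited FPKM scale, Igtp was highest, with a median of 4.90 FPKM over the 8 libraries (3.41 to 6.48). Gbp7 followed at 0.91 FPKM (0.64 to 1.37), and even its highest library was below the lowest of Igtp. Irgm1 (median 0.735 FPKM, 0.46 to 1.09) came next, then Gbp2 (0.48, 0.31 to 0.67), Gbp4 (0.41, 0.21 to 0.86) and Gbp9 (0.395, 0.20 to 0.75). Gbp3 (0.23 FPKM, 0.12 to 0.35), Irgm2 (0.19, 0.06 to 0.28), Gbp8 (0.185, 0.09 to 0.37) and Iigp1 (0.07, 0 to 0.08) were lowest. Neighbours in this order overlapped in their ranges, except Igtp with Gbp7 and Gbp8 with Iigp1.

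The members did not move as a single group across libraries. Of the 45 pairs of members, 22 had a positive and 23 a negative Pearson correlation of log2 CPM (prior count 1) over the 8 libraries. The median was -0.05, the highest value 0.84 (Gbp2 with Gbp7) and the lowest -0.86 (Gbp8 with Igtp). These are descriptions over libraries that share both scaling factors and groups. The genes outside the list most like the members' mean standardised level were Gss (glutathione synthetase; Pearson r 0.98, Spearman rho 0.95), Atp5c1 (a subunit of mitochondrial ATP synthase; 0.96, 0.95), Trappc6a (0.96, 0.90), Mavs (the adaptor of RNA sensors on mitochondria; 0.96, 0.95) and Tuba4a (0.96, 0.93), over 8 libraries. Without PM2.5 replicates 17 and 21, the farthest from the median, the Pearson r of these genes were 0.95, 0.88, 0.95, 0.91 and 0.87.

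**Figure D5:**
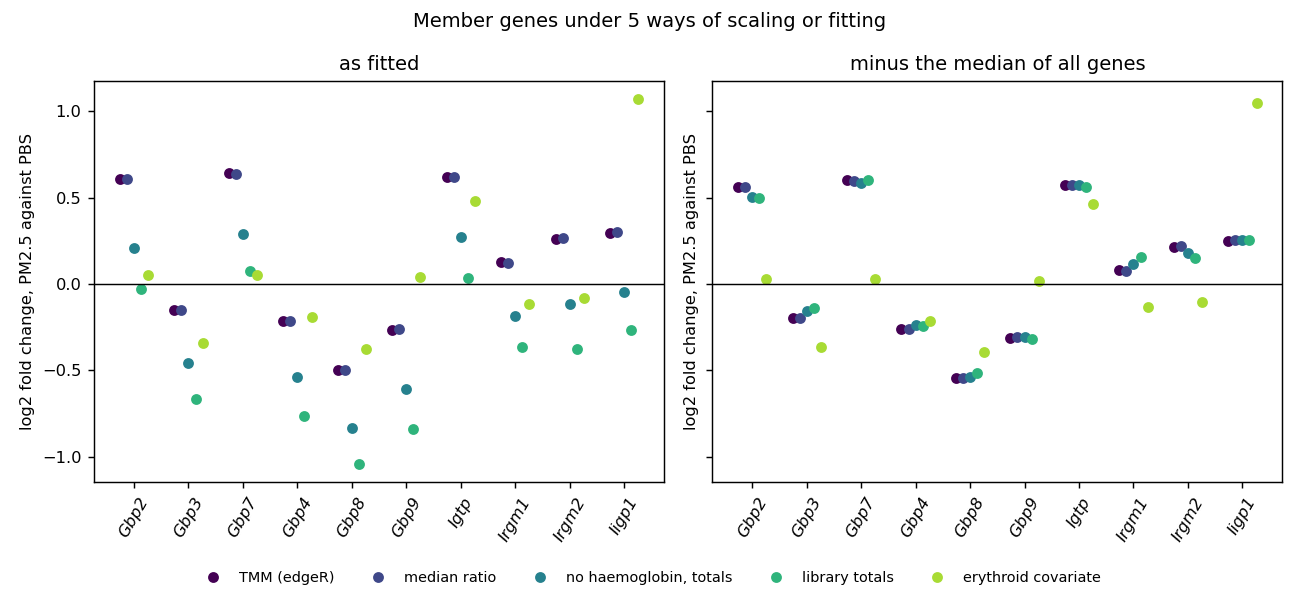
Log2 fold change (PM2.5 against PBS) of each member under TMM scaling, median ratio scaling, library totals with haemoglobin removed, library totals, and TMM with the erythroid marker mean as a covariate, as fitted (left) and after subtracting the median of all genes (right). The 4 scalings spread apart on the left, where Gbp2, Irgm1, Irgm2 and Iigp1 cross 0, and nearly coincide on the right by construction; the covariate brings Gbp2 and Gbp7 to 0.05, Igtp to 0.48 and Iigp1 to 1.07.

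Another library size shifts every gene by nearly the same amount, so the distance of a member from the median gene is set by construction to be alike on these scales. With totals, Gbp2 stood 0.50 above the median gene, Irgm1 0.16, Irgm2 0.15 and Iigp1 0.26, while Gbp3 stood at -0.14, Gbp4 at -0.24, Gbp9 at -0.32 and Gbp8 at -0.52 relative to it. The erythroid covariate changed the fit itself. Against the median gene, 7 of the 10 members kept their direction with it and 3 (Gbp9, Irgm1 and Irgm2) turned. The log2 fold changes were 0.48 for Igtp, 0.05 for both Gbp2 and Gbp7, 0.04 for Gbp9, -0.11 for Irgm1, -0.08 for Irgm2, -0.34 for Gbp3, -0.19 for Gbp4 and -0.37 for Gbp8. The value furthest from that without the covariate was that of Iigp1, at 1.07 (adjusted p = 0.625) on its 1 to 16 counts. The summed CPM of the 15 erythroid markers was 22133 to 38527 with PM2.5 and 17989 to 29298 with PBS, and its part in these differences beyond this covariate was not tested.

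Of 19 further genes of the GTPase families, 10 were tested and none passed, with 8 positive and 2 negative fold changes and a median of 0.21. The smallest p belonged to Tgtp2, which carries the same GAS and ISRE unit as Igtp: 1.83, 3.94, 3.31 and 4.22 CPM with PM2.5 and 1.14, 1.48, 3.50 and 2.52 CPM with PBS. The groups overlapped, and its log2 fold change was 0.63 (SE 0.295, adjusted p = 0.269). Other carriers of this unit were lower, Irgm2 at 0.26 and Tgtp1 at 0.14 (SE 0.369, adjusted p = 0.87). Tgtp1 is named here after its values were seen. Whether the unit has a part in these values was not tested. Gvin1, a giant GTPase of the very large interferon-inducible type, was the most abundant gene of these families at 91.3 to 376 CPM with PM2.5 and 72.3 to 181 with PBS (log2 fold change 0.60, SE 0.373, adjusted p = 0.396), and PM2.5 replicate 17 was its highest library. Irgq, a distant relative of the IRGs, stood at -0.54 (log2 fold change, SE 0.263, adjusted p = 0.29).

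Upstream of the GTPases, Ifng itself had 1 count in the 4 PM2.5 libraries together and 9 in the PBS libraries, too few to test. Of 14 genes of interferon gamma signalling, 12 were tested and none passed, with 7 positive and 5 negative fold changes and a median of 0.12. The receptor chains had log2 fold changes of -0.19 for Ifngr1 (SE 0.177, adjusted p = 0.587) and 0.10 for Ifngr2 (SE 0.206, adjusted p = 0.831). The kinases were at 0.21 for Jak1 (SE 0.181, adjusted p = 0.551) and -0.05 for Jak2 (SE 0.187, adjusted p = 0.908). The factors of the ISRE shown above were at 0.37 for Irf1 (SE 0.264, adjusted p = 0.467) and 0.48 for Irf9 (SE 0.178, adjusted p = 0.18). Ptpn6, a phosphatase that restrains this signalling, was at 0.25 (SE 0.159, adjusted p = 0.407). With library totals the signs of Ifngr2, Jak1, Irf1, Irf9 and Ptpn6 turned negative, as the median gene did.

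Among 22 other known targets of interferon gamma, 17 were tested and none passed, with 12 positive, 5 negative and a median of 0.13. Acod1, which makes itaconate in activated macrophages, had the lowest value at -2.12 (SE 0.622, adjusted p = 0.0962). Its counts were 25, 35, 19 and 6 with PM2.5 and 164, 38, 29 and 377 in PBS replicates 4, 10, 12 and 16, and without PBS replicate 16 the value was -1.20 (adjusted p = 0.284). It was called with library totals (adjusted p = 0.000435), with haemoglobin removed (adjusted p = 0.0268) and without a filter (adjusted p = 6.6e-13). Next in p came Ciita, the activator of MHC class II genes, at -0.46 (SE 0.193, adjusted p = 0.233) and B2m, the light chain of MHC class I, at 0.46 (SE 0.201, adjusted p = 0.243). Type I interferon response genes, which share the ISRE, had a higher median: 19 of 21 tested were positive (54.3% of all genes), the median was 0.59, 11 had an unadjusted p under 0.05 and a positive change (8.79% of all genes), and none passed. Usp18, which shuts off the type I receptor, was at 0.93 (SE 0.253, adjusted p = 0.074), Oasl2, an antiviral relative of the oligoadenylate synthetases, at 1.00 (SE 0.277, adjusted p = 0.0804) and Rtp4, an interferon-induced receptor transporter, at 1.21 (SE 0.355, adjusted p = 0.0966). DESeq2 called Usp18, Oasl2 and Rtp4 (adjusted p = 0.0362, 0.0418 and 0.0372), as did edgeR without a filter on low counts (adjusted p = 0.0115, 1.6e-05 and 0.0485). Oasl2 was also called without PM2.5 replicate 9 (adjusted p = 0.0336). With library totals these genes were not called (0.41, 0.47 and 0.69, adjusted p = 0.471, 0.327 and 0.340). The same held with haemoglobin removed (0.60, 0.67 and 0.88, adjusted p = 0.294, 0.193 and 0.227). It also held with the erythroid covariate (0.78, 0.66 and 0.90, adjusted p = 0.464, 0.559 and 0.523).

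Of 23 genes for proteins that load these GTPases onto membranes or act after them (autophagy conjugation and inflammasome genes), all were tested and 1 passed, or 1 of 23 against 1.6% of all genes. The list as a whole had 18 positive and 5 negative fold changes, a median of 0.41, and at an unadjusted p under 0.05 held 6 higher and 2 lower genes, so the gene that passed ran against most of its list. Aim2, the DNA sensor that responds once GBPs have opened bacteria, fell, at 0.259 to 0.498 CPM with PM2.5 against 0.672 to 1.07 with PBS (log2 fold change -1.15, SE 0.269, adjusted p = 0.0394). The groups did not overlap. The call was lost without PM2.5 replicates 17 and 18 (-0.90, adjusted p = 0.33). It was also lost when any 1 library other than PM2.5 replicate 9 and PBS replicate 16 was left out, with adjusted p of 0.0517 to 0.163, and with the erythroid covariate (adjusted p = 0.422). In edgeR it was kept with library totals (adjusted p = 0.017), haemoglobin removed (0.037) and median ratio scaling (0.041). Without a filter (adjusted p = 0.0042), in DESeq2 (0.0078) and without PM2.5 replicates 9 and 21 (0.037) it was kept too.

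Of the summed cell type markers, only those of neutrophils separated the groups. Among all genes tested, 0.463% were called higher and 1.14% lower. Neutrophil markers summed to 28.2 to 54.9 CPM with PM2.5 and 13.8 to 27.3 with PBS, without overlap, with 4 of 7 tested called higher. Monocyte markers summed to 110 to 179 CPM and 82.0 to 136, with 3 of 10 called higher, and B cell markers to 38.5 to 49.7 and 44.7 to 74.3, with 3 of 10 called lower. T cell markers had a median log2 fold change of 0.14 and no call among 12, and natural killer cell markers a median of 0.44 and 1 call among 9. Platelet markers had a median of 0.32, with all 12 positive and no call. Of 12 brain markers 4 were tested and none passed, and the list summed to 50.3 to 85.3 CPM with PM2.5 and 37.1 to 67.2 with PBS. How far the fold changes of the GTPase genes follow these shifts was not tested.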

How the data were processed

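The members and gene lists were drawn up by name, with no value as a criterion, but with earlier results of these data known. Libraries from buffy coat RNA were randomly primed and kept strand, per the labels' protocols. Tools named by the submitters' processing notes were HISAT2 2.0.1 (with GRCm38), cutadapt 1.9.1 and bcl2fastq 2.17.1.14. How reads were counted, and by strand or not, is not stated there, so genes that overlap could exchange reads. The authors deposited estimated counts (expected counts, not normalized; 24.5% not whole) for 118783 Ensembl transcripts. The authors also deposited FPKM values for the same libraries. The file header names these columns and a transcript length, but neither it nor the labels give the tool that made them.

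Counts were summed to 35944 genes of GENCODE M21 and rounded; 2073 unmatched transcripts (0.0266% to 0.0532% of a library) were left out. Of 28 library pairs, none agreed within sampling noise (lowest chi-square per degree of freedom 20.5). PM2.5 was compared with PBS in edgeR 4.0.16 (under R 4.3.3, by its two-sided quasi-likelihood test on all 8 libraries with TMM scaling, filterByExpr at a minimum count of 10 and total of 15, and no covariate), with Benjamini-Hochberg adjustment over 10361 genes at a threshold of 0.05; the SE is the log2 fold change over the square root of F. Transcript shares were compared by exact permutation. The procedure was tested on simulated data. There it recovered 23.7% of 1.5-fold, 86.9% of 2-fold and 100% of 4-fold differences. On average 7.7% of its calls there were false, at the threshold of 0.05. All members were named, and of other lists the genes past the threshold (up to 6) or else the 3 with the smallest p, plus Ifng, Ifngr1, Ifngr2, Jak1, Jak2 and Irf1; 1 gene that this rule names is not reported here. Like genes were the 5 with the highest Pearson r of log2 CPM (prior count 1) to the members' mean, skipping predicted genes, RIKEN clones, pseudogenes and receptor segments. The 19 alternative fits covered scaling, filters, an erythroid covariate, DESeq2 1.42.0, limma 3.58.1 on FPKM, and libraries left out.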

Additional observations from a re-analysis of the deposited data

How the results depend on the processing

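No paired analysis was possible because the groups share no replicate numbers. Genes called (166) numbered 483 with library totals (8 higher, 475 lower), 624 without a filter (313 and 311), 371 with DESeq2 (109 and 262), 356 at a threshold of 0.1 (115 and 241), 8 without PM2.5 replicates 17 and 18 (5 and 3), and 31 to 192 with each library left out: 31 without PBS replicate 10, 87 without PBS replicate 4, and 55, 69 and 85 without PM2.5 replicates 17, 18 and 21. Calls numbered 0 with the erythroid covariate in edgeR (964 at an unadjusted p under 0.05) and 0 with limma on log2(FPKM + 1) or log2(FPKM + 0.1) (716 and 695 unadjusted). Members called were 2 without a filter (Gbp7, Igtp), 1 with DESeq2 and 1 at a threshold of 0.1 (Igtp), and 0 in the other fits. Members with positive fold changes (6 of 10) were 2 with totals, 3 with haemoglobin removed, 2 of the 2 kept by limma (either pseudocount), and 5 to 6 with each library left out. Their median (0.19) was -0.37 with totals, -0.15 with haemoglobin removed, -0.13 without PM2.5 replicates 9 and 21, and 0.01 to 0.30 with each library left out.

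Signs turned with library totals, where the median gene stood at -0.52, for Gbp2 (-0.027), Irgm1 (-0.37), Irgm2 (-0.38), Iigp1 (-0.27), Ifngr2 (-0.49), Jak1 (-0.39), Irf1 (-0.18), Irf9 (-0.060), Ptpn6 (-0.33), Gvin1 (-0.042) and B2m (-0.062). With haemoglobin removed they turned for Irgm1 (-0.18), Irgm2 (-0.12), Iigp1 (-0.044), Ifngr2 (-0.26), Jak1 (-0.15) and Ptpn6 (-0.11), and with the erythroid covariate for Gbp9 (0.041), Irgm1 (-0.11), Irgm2 (-0.083), Jak2 (0.012) and Gvin1 (-0.40). On log2(FPKM + 1) and log2(FPKM + 0.1) they turned for Jak1 (-0.39, -0.42), Irf1 (-0.017, -0.043), Gvin1 (-0.11, -0.12), Ptpn6 (-0.23, -0.30) and B2m (-0.10, -0.10). Gvin1 was -0.23 without PM2.5 replicates 17 and 18, and Iigp1 -0.30 without 9 and 21. Leaving out each library in turn gave ranges that crossed 0 for Gbp3 (-0.30 to 0.016), Irgm1 (-0.062 to 0.33), Irgm2 (-0.084 to 0.44), Iigp1 (-0.017 to 0.53), Ifngr2 (-0.023 to 0.25), Jak2 (to 0.058) and Gvin1 (-0.020 to 0.86). The cause of these turns was not tested.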
